A study of Homo sapiens with 6 samples.

Results

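The genes examined were 43 integrins and basement membrane genes, of 37803 gene symbols listed once in each of the deposited tables. They were listed by symbol, with earlier results of these data known. The list holds 13 integrin alpha subunits, 8 integrin beta subunits, 10 laminin chains and 6 collagen IV chains. The last 6 are genes for nidogens, basement membrane proteoglycans and dystroglycan. All 43 were found in both tables. Of these, 30 had a mean of at least 1 FPKM (fragments scaled by transcript length and by library size) and were tested, and the values of the other 13 are given without a test of the main kind.

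Integrins are receptors made of one alpha and one beta chain that span the plasma membrane and tie the actin cytoskeleton to the matrix outside the cell. The alpha chain largely sets the ligand: some alpha chains bind laminins, some bind collagens, and others bind fibronectin, vitronectin and related proteins, several of them through an RGD peptide. Laminin trimers and collagen IV form the polymers of the basement membrane, the sheet under epithelia, and nidogens and heparan sulfate proteoglycans link them. When epithelial cells become mesenchymal at gastrulation they leave this sheet, and SNAI1 is the zinc-finger transcription factor best known for driving that transition and for repressing E-cadherin through short E-box sequences.

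The cells were H1, a human embryonic stem cell line, cultured for 2 days with activin A and BMP4 as the first stage of hematopoietic differentiation. All groups received the same medium, for which the labels give 40 ng/ml activin A with 50 ng/ml BMP4, whereas the methods of the study give these doses the other way round. Wild-type cells (WT, n = 2) were compared with cells deleted for SNAI1, in groups here called SNAI1_KO_1 (n = 2) and SNAI1_KO_2 (n = 2) after the leading number in their titles. The study describes a pair of CRISPR/Cas9 lines with frameshift mutations for each deleted gene, and neither group was matched to one of those lines. Each of 2 tables held 1 library of each group and was normalized on its own, so knockout and WT libraries were compared within a table. The labels do not say whether libraries of a group came from separate cultures, and p-values measure the spread between these libraries only.

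SNAI1 mRNA was 37.1 and 36.4 FPKM in WT, 51.6 and 47.8 in SNAI1_KO_1, and 68.6 and 55.0 in SNAI1_KO_2, so it was higher in every knockout library. A frameshift can leave the transcript in place, and these levels do not check the labels. FPKM summed to between 603399 and 633851 per library. Read totals are unknown, and no counting interval is given. As a multiple of the depth of the WT library beside them in a table, knockout libraries had an estimated depth of 0.967 and 0.874 in the first table and at 1.09 and 1.11 in the second.

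Integrin and basement membrane genes differed between knockout and WT cells in both directions, also within the integrin alpha and laminin classes. The laminin-binding alpha chains ITGA3, ITGA6 and ITGA7 and the laminin chains LAMA5, LAMB2, LAMB3 and LAMC1 were higher without SNAI1. So were the proteoglycans COL18A1, AGRN and HSPG2 and the laminin receptor DAG1. The fibronectin receptor chain ITGA5, the separate pair of alpha chains ITGA4 and ITGA9, and the laminin chains LAMA1, LAMB1 and LAMC3 were lower. No collagen IV chain that was tested passed the threshold. Taking both knockout groups together against WT, by limma with a Benjamini-Hochberg adjusted p under 0.05, 21 of the 30 tested genes (70%) passed, 15 higher and 6 lower. Of all 13909 genes tested, 31.3% passed, 15.8% higher and 15.4% lower. With a log2 difference of at least 0.5 in size also required, 16 of 30 passed against 18.3% of all genes, and with one of at least 1, 9 of 30 against 7.18%. The median log2 difference of the 30 genes was 0.33, against -0.05 over all genes tested. These are differences of log2(FPKM + 1), which understate the change of genes with low values.

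The filter bears on these counts. Its mean is over 4 knockout and 2 WT libraries. A gene high only in the knockout libraries is thus kept more readily than one high only in WT. For 5 of the 30 genes (ITGA2, ITGA4, ITGB4, ITGB8 and LAMB3) the mean was under 1 FPKM in WT or in the knockout libraries. Where one side alone lifted a gene over the filter, its group means had to differ, though not by enough to pass the threshold. Of these 5 genes ITGB4 did not pass it. Among the other 25 genes, 17 passed the threshold, 12 higher and 5 lower, where 29.9% of the 13031 genes with a mean of at least 1 FPKM on both sides passed. With no filter, 13 of the 43 genes passed higher and 7 lower, where 8.75% of all 29922 genes passed in either direction.

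SNAI1_KO_1 and SNAI1_KO_2 gave similar lists when each was compared with WT. In SNAI1_KO_1, 19 of 30 passed (14 higher, 5 lower), where 23.9% of all genes tested did so. In SNAI1_KO_2, 20 of 30 passed (14 higher, 6 lower), where the share of all genes was 25.5%. Both comparisons use the same WT libraries and are not independent of each other. Between the knockout groups themselves 0 of the 30 genes passed, 0 had an unadjusted p under 0.05 by limma, and 0% of all genes tested passed. The log2 differences of SNAI1_KO_2 from SNAI1_KO_1 lay between -0.18 and 0.20, with a median SE of 0.104.

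**Figure D1:**
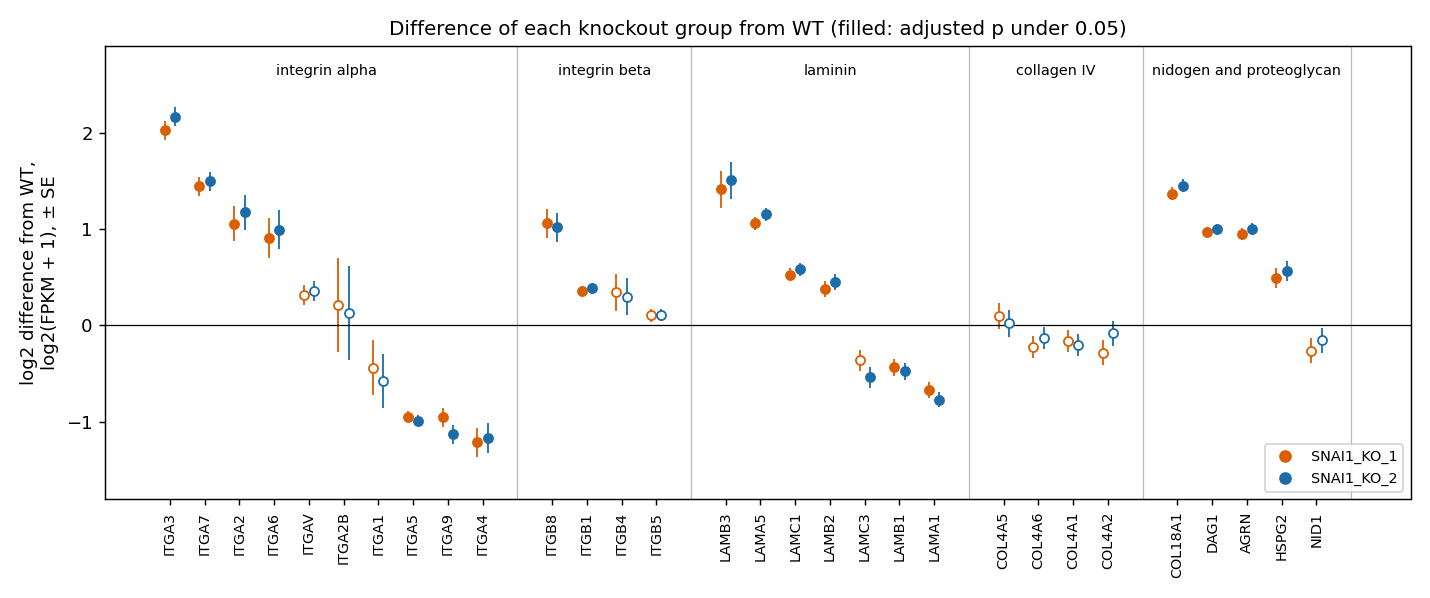
Fitted difference of SNAI1_KO_1 and of SNAI1_KO_2 from WT in log2(FPKM + 1), with its SE, for the 30 tested genes grouped by class (filled points: limma adjusted p under 0.05). ITGA3 had the largest rises (2.03 and 2.16) and ITGA4 the largest falls (-1.22 and -1.17), and all points of the collagen IV chains are open.

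Among integrin alpha chains, 10 of 13 were tested, of which 5 were higher, 3 lower and 2 did not pass (median log2 difference 0.25). The laminin receptor chains ITGA3, ITGA6 and ITGA7, which pair with ITGB1, were all higher. ITGA3 was listed at 1.75 and 2.59 FPKM in WT, at 10.2 and 13.7 in SNAI1_KO_1, and at 11.01 and 15.5 in SNAI1_KO_2, where the first value of each pair is from the first table. Every knockout library exceeded both WT libraries, and ITGA3 had the largest difference in log2(FPKM + 1) of the 30 genes (2.09 ± 0.085 SE, limma adjusted p = 0.000196). As a ratio of FPKM within a table LAMB3 differed more, at 17.4 to 23.5 times WT against 5.28 to 6.29 for ITGA3. ITGA7, known above all from muscle, was at 7.34 and 14.3 FPKM in WT, 24.2 and 36.7 in SNAI1_KO_1, and 24.6 and 38.8 in SNAI1_KO_2. These groups did not overlap either (1.47 ± 0.086, adjusted p = 0.000436 by limma). ITGA6, the alpha chain of epithelial hemidesmosomes, was at 3.35 and 5.67 FPKM in WT, 9.73 and 8.47 in SNAI1_KO_1, and 8.19 and 11.5 in SNAI1_KO_2. Its lowest knockout value was above the higher WT value, and the log2 difference was 0.95 ± 0.18 (limma adjusted p = 0.0145). Without the term for the table the limma adjusted p was 0.0808 for ITGA6 and 0.0624 for ITGA7. For ITGA6 it was 0.121 without the first-table WT library and 0.0582 without the second-table SNAI1_KO_2 library.

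ITGA5, which with ITGB1 forms the main fibronectin receptor, was the most abundant alpha chain in every library, WT or knockout. It was lower in the knockout libraries by about as much in each table. It was at 93.7 and 94.9 FPKM in WT, 47.6 and 49.3 in SNAI1_KO_1, and 47.6 and 46.5 in SNAI1_KO_2. The mean of the knockout libraries was 0.506 of WT, with no overlap (log2 difference -0.97 ± 0.050, limma adjusted p = 0.000341). ITGA4 and ITGA9 are a related pair of alpha chains that bind fibronectin segments, VCAM1 or tenascin outside the RGD site. ITGA9 was at 19.0 and 16.3 FPKM in WT, 10.1 and 7.37 in SNAI1_KO_1, and 8.68 and 6.45 in SNAI1_KO_2 (-1.04 ± 0.085, limma adjusted p = 0.00110). ITGA4 was at 3.65 and 3.47 FPKM in WT and between 0.911 and 1.10 in the 4 knockout libraries, a mean ratio of 0.279 (-1.19 ± 0.13, limma adjusted p = 0.00295). For both genes all knockout values lay below both WT values.

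The collagen receptor chain ITGA2 was low in every library. It was at 0.371 and 0.366 FPKM in WT, 2.28 and 1.47 in SNAI1_KO_1, and 2.28 and 1.90 in SNAI1_KO_2 (log2 difference 1.11 ± 0.16, limma adjusted p = 0.00586), and without the first-table WT library the adjusted p was 0.0558. ITGA1, the other tested collagen receptor chain, was at 2.92 and 1.23 FPKM in WT and between 0.801 and 1.64 in the knockout libraries, and did not pass (-0.51 ± 0.25, limma adjusted p = 0.173). ITGAV, which pairs with several beta chains, was at 16.9 and 16.6 FPKM in WT and between 18.5 and 23.98 in the knockout libraries (0.34 ± 0.090, limma adjusted p = 0.0408). It passed in the contrast of both groups but in neither group alone (limma adjusted p = 0.0841 and 0.0583), and the call was lost without the term for the table (0.327) and when any single library was left out (0.0507 to 0.244). ITGA2B, the platelet integrin chain, varied within groups, from 1.47 to 5.23 FPKM in the knockout libraries against 2.27 and 2.52 in WT (0.17 ± 0.42, limma adjusted p = 0.791).

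Grouping the alpha chains by textbook ligand class, a grouping chosen after the values were seen, shows how these changes add up. FPKM is scaled by transcript length, so levels of different chains can be summed. ITGA3, ITGA6 and ITGA7 together made up 8.16% and 14.2% of summed alpha chain FPKM in the WT libraries, and 33.3%, 32.9%, 41.2% and 45.4% in the knockout libraries. The RGD-binding chains ITGA5, ITGA8, ITGAV and ITGA2B made up 74.5% and 72.0% in WT and between 47.2% and 56.4% without SNAI1. ITGA4 with ITGA9 made up 14.9% and 12.4% in WT and between 5.11% and 8.28% in the knockout libraries. ITGA5 alone held between 59.6% and 61.4% in WT and between 32.1% and 35.9% in the knockout libraries. Its level was 53.5 and 36.6 times that of ITGA3 in WT, and between 2.999 and 4.68 times in the knockout libraries. The summed FPKM of all alpha chains differed less, at 152.6 and 159.1 in WT and between 132.5 and 145.0 in the knockout libraries.

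**Figure D2:**
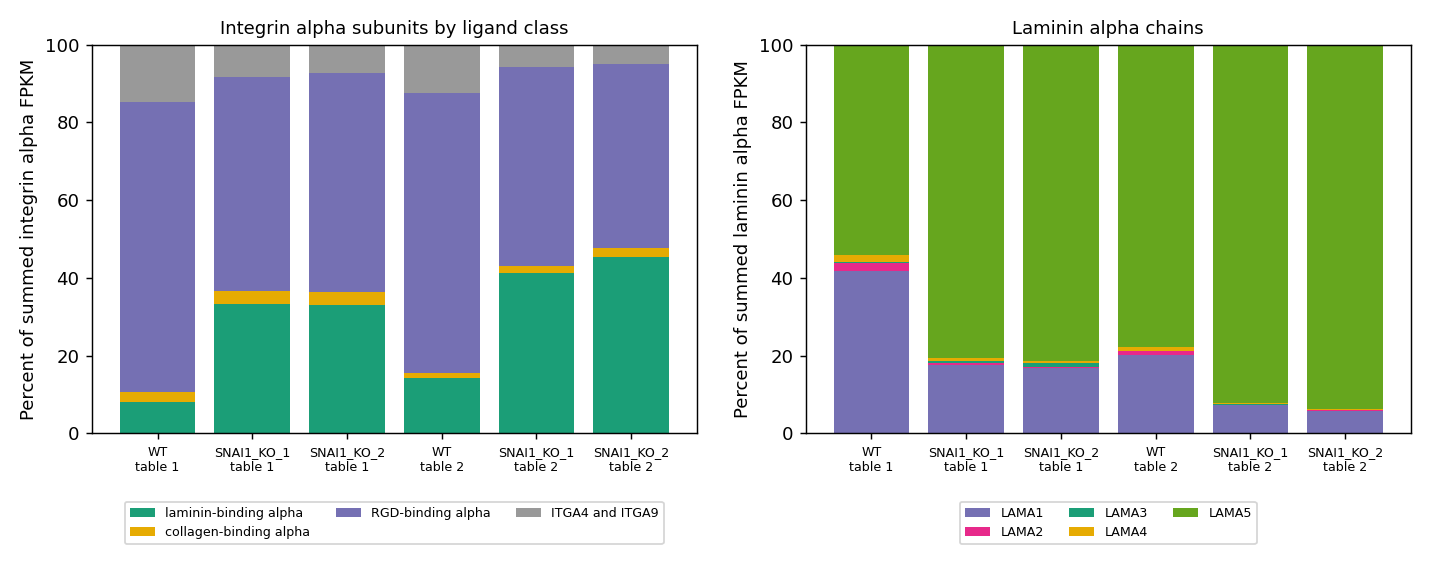
Stacked bars of the percent of summed FPKM in each of the 6 libraries, for integrin alpha chains grouped by ligand class on the left and for the 5 laminin alpha chains on the right. The laminin-binding alpha chains made up 8.16% and 14.2% in WT and between 32.9% and 45.4% in the knockout libraries, and LAMA1 made up between 20.2% and 41.8% of laminin alpha chain FPKM in WT and between 5.82% and 17.6% without SNAI1.

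Of 8 integrin beta chains 4 were tested, and 2 of them were higher (median log2 difference 0.35). ITGB1, the partner of most alpha chains above, was at 108.6 and 104.0 FPKM in WT, 143.5 and 129.1 in SNAI1_KO_1, and 140.1 and 138.1 in SNAI1_KO_2. The groups did not overlap, but the rise was small, with a mean ratio of 1.30 (log2 difference 0.37 ± 0.048, limma adjusted p = 0.00473). Its adjusted p was 0.142 in limma without the term for the table and 0.0523 without the first-table WT library. ITGB1 thus stood at 1.16 and 1.10 times the level of ITGA5 in WT and at between 2.62 and 3.02 times in the knockout libraries. ITGB8, which with ITGAV binds latent TGF-beta, was at 0.618 and 0.576 FPKM in WT and between 2.18 and 2.49 in the knockout libraries (1.04 ± 0.13, limma adjusted p = 0.00433). ITGB5, a vitronectin receptor chain, was the most abundant beta chain. It was at 229.9 and 363.9 FPKM in WT, 254.5 and 379.4 in SNAI1_KO_1, and 268.2 and 361.3 in SNAI1_KO_2, so the tables differed more than the groups (0.10 ± 0.057, limma adjusted p = 0.217). ITGB4, the partner of ITGA6 in hemidesmosomes, was at 0.640 and 1.13 FPKM in WT and between 0.920 and 1.92 in the knockout libraries (0.32 ± 0.17, limma adjusted p = 0.209).

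All 7 of the laminin chains tested, of 10, passed the threshold, 4 higher and 3 lower (median log2 difference 0.41). LAMA2 and LAMA4, with all knockout values below both WT values, were under the filter and are not in this count, nor is LAMA3. The alpha chains moved apart. LAMA1, the alpha chain of the first laminins of the embryo, was at 25.9 and 21.7 FPKM in WT, 16.4 and 12.9 in SNAI1_KO_1, and 15.5 and 11.8 in SNAI1_KO_2. All knockout values were below WT (-0.72 ± 0.070, limma adjusted p = 0.00186). LAMA5, the alpha chain of many later basement membranes, was at 33.7 and 83.4 FPKM in WT, 75.1 and 165.9 in SNAI1_KO_1, and 75.0 and 190.0 in SNAI1_KO_2. The first-table knockout values were under the second-table WT value, since WT itself differed 2.48-fold between tables, but within a table every knockout library was between 1.99 and 2.28 times WT (1.11 ± 0.059, limma adjusted p = 0.000348). The ratio of LAMA5 to LAMA1 was 1.30 in WT, 4.57 in SNAI1_KO_1 and 4.85 in SNAI1_KO_2 in the first table. In the second table it was 3.84, 12.9 and 16.1. Without the term for the table the limma adjusted p was 0.0862 for LAMA1 and 0.368 for LAMA5.

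LAMB3, a beta chain of the laminin under epithelial hemidesmosomes, was close to 0 in WT. It was at 0.0804 and 0.113 FPKM in WT, 1.86 and 1.97 in SNAI1_KO_1, and 1.66 and 2.65 in SNAI1_KO_2, a wide gap between groups (log2 difference 1.46 ± 0.17, limma adjusted p = 0.00307). LAMA3 was under the filter, at 0.0452 and 0.0238 FPKM in WT, 0.375 and 0.376 in SNAI1_KO_1, and 0.895 and 0.197 in SNAI1_KO_2. All LAMA3 values in knockout libraries were thus above WT, but with no filter its limma adjusted p was 0.208.

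Among the other tested laminin chains, LAMC1, the gamma chain of most laminins, was at 35.2 and 26.1 FPKM in WT, 49.2 and 39.5 in SNAI1_KO_1, and 51.1 and 41.1 in SNAI1_KO_2, with no overlap (0.55 ± 0.058, limma adjusted p = 0.00235). Of the beta chains, LAMB1 fell from 39.8 FPKM in both WT libraries to between 26.2 and 32.0 (-0.45 ± 0.076, limma adjusted p = 0.00994). LAMB2 rose from 47.5 to 56.7 and 65.7 FPKM in the first table and from 67.6 to 96.3 and 92.2 in the second (0.41 ± 0.074, limma adjusted p = 0.0123). The ratio of LAMB2 to LAMB1 was 1.19 and 1.70 in WT and between 1.77 and 3.61 in the knockout libraries. LAMC3 fell from 11.3 to 9.08 and 6.94 FPKM in the first table and from 22.0 to 15.95 and 15.88 in the second (-0.45 ± 0.095, limma adjusted p = 0.0208), and in SNAI1_KO_1 alone it did not pass (adjusted p = 0.0689). Without the term for the table the limma adjusted p was 0.181 for LAMC1, 0.144 for LAMB1, 0.527 for LAMB2 and 0.68 for LAMC3. Calls also rested on single libraries: the adjusted p was 0.0726 for LAMB1 without the second-table WT library, 0.0651 and 0.106 for LAMB2 without the WT library of the first and the second table, and between 0.0586 and 0.127 for LAMC3 without any of 4 libraries.

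The proximal promoters were searched for the E-box hexamer bound by SNAI1-type zinc fingers, spelled CAGGTG or, on the other strand, CACCTG. RefSeq windows (GRCh38.p14) from 250 bases before to 50 bases after the start were given for 34 of the 43 genes, 44 windows in all. The hexamer was in 9 of the 44 windows (20.5%), against 20.6% of all 35116 windows. Of the genes that were higher, 12 had a window and 3 of these held the hexamer (ITGA6, LAMB3 and LAMA5). The genes that were lower had 3 with a window and 0 with the hexamer. Of the other 19 genes with a window 6 held it (ITGA11, ITGB5, ITGB6, LAMA3, COL4A3 and COL4A4). Among these, ITGB5 did not pass the threshold, and ITGA11 and ITGB6 were under the filter and overlapped between groups. A match is a description of the sequence and no evidence of binding. The stretches around the hexamers of the 3 higher genes and of LAMA3, whose chain assembles with LAMB3, are shown. They were picked because every knockout library was above the WT library of its table, so they cannot show whether hexamer and level go together. Each reads 5′ to 3′ on the strand of the gene, the capitals mark the hexamer, and all lie upstream of the start. They are ITGA6 at chr2:172427176-172427319 (plus strand, hexamers 136 and 46 bases before the start), LAMB3 at chr1:209652614-209652667 (minus strand, 218 bases before), LAMA5 at chr20:62367484-62367537 (minus strand, 201 bases before) and LAMA3 at chr18:23872923-23872976 (plus strand, 73 bases before).
ITGA6: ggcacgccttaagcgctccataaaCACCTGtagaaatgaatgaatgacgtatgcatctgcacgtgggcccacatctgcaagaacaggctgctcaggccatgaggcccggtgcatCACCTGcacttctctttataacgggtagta
LAMB3: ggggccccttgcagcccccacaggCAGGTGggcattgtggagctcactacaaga
LAMA5: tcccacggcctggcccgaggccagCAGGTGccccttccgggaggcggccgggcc
LAMA3: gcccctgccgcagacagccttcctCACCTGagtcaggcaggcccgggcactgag

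The 6 collagen IV genes lie in 3 pairs, and the genes of a pair face away from each other with their starts close together. COL4A1 and COL4A2 encode the network of nearly all basement membranes, while COL4A3, COL4A4 and COL4A5 encode that of the kidney glomerulus. The 4 tested chains gave no call (median log2 difference -0.18, with 0 of the 4 at an unadjusted p under 0.05 by limma). COL4A1 was at 33.8 and 36.9 FPKM in WT, 35.1 and 28.3 in SNAI1_KO_1, and 32.2 and 28.9 in SNAI1_KO_2 (-0.18 ± 0.098, limma adjusted p = 0.211). COL4A2 was at 28.8 and 47.9 FPKM in WT, 28.0 and 32.8 in SNAI1_KO_1, and 28.1 and 43.6 in SNAI1_KO_2 (-0.18 ± 0.11, limma adjusted p = 0.266). Knockout and WT values overlapped for both. COL4A5 was between 10.9 and 14.9 FPKM over all libraries (0.06 ± 0.12, adjusted p = 0.746 by limma) and COL4A6 between 6.63 and 9.45 (-0.18 ± 0.099, adjusted p = 0.225).

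COL4A3 and COL4A4 fell under the filter, yet were the collagen IV chains that separated the groups. COL4A3 was listed at 0.0108 and 0.0288 FPKM in WT, 1.13 and 0.983 in SNAI1_KO_1, and 0.672 and 0.629 in SNAI1_KO_2. COL4A4 was at 0.0481 and 0.0391 FPKM in WT, 0.667 and 0.566 in SNAI1_KO_1, and 0.642 and 0.495 in SNAI1_KO_2. Every knockout library was above both WT libraries for both genes. In the alternative fit with no filter their log2 differences were 0.85 (limma adjusted p = 0.0219) and 0.61 (limma adjusted p = 0.0286). At such levels, FPKM with no read totals leaves the counting error unknown.

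The stretches between the starts of all 3 pairs are shown, and whether the hexamer bears on the levels of these genes was not tested. All read 5′ to 3′ on the plus strand of GRCh38.p14 and capitals mark the hexamer. It was found only between COL4A4 and COL4A3, 210 bases before the start of COL4A4 and 214 before that of COL4A3. This is a single site, counted above in the windows of both genes. The starts are 127 bases apart for COL4A1 and COL4A2 (whole stretch, chr13:110307158-110307283), 419 for COL4A4 and COL4A3 (the 82 bases that lie in both windows, chr2:227164374-227164455) and 380 for COL4A6 and COL4A5 (the 121 bases in both windows, chrX:108439588-108439708).
COL4A1/COL4A2: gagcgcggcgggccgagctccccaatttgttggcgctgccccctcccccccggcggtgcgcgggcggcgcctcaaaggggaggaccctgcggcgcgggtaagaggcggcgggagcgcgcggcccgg
COL4A4/COL4A3: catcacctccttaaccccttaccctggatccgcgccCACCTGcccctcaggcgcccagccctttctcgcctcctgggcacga
COL4A6/COL4A5: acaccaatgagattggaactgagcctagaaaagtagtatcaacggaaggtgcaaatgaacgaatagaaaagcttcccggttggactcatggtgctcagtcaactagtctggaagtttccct

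**Figure D3:**
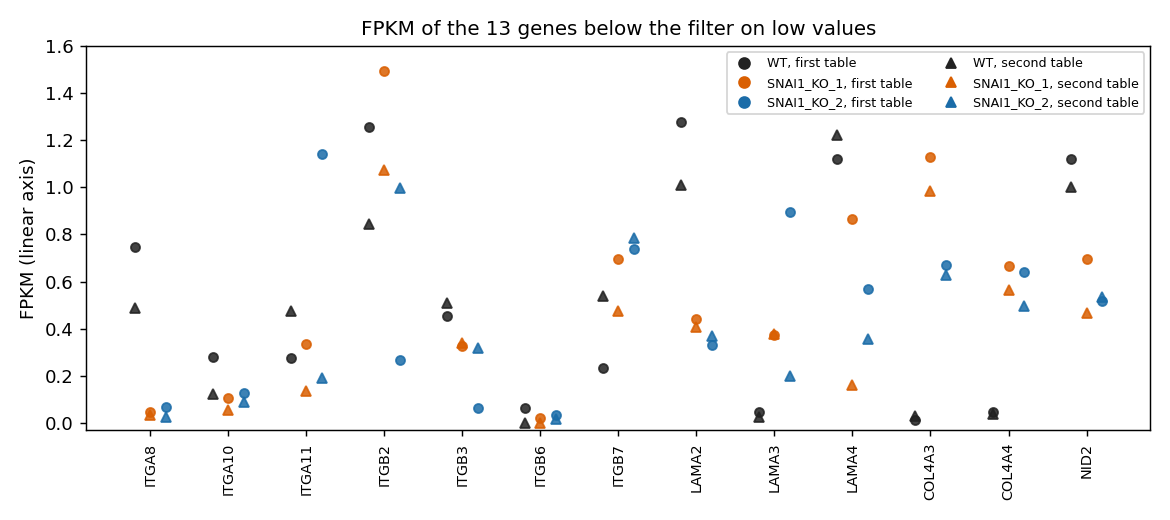
FPKM on a linear axis of the 13 genes under the filter in each of the 6 libraries, with groups by colour and tables by symbol. COL4A3 and COL4A4 lay between 0.0108 and 0.0481 in WT and between 0.495 and 1.13 in the knockout libraries, and ITGA8 lay at 0.746 and 0.486 in WT and between 0.0260 and 0.0665 in the knockout libraries.

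Of the nidogens, proteoglycans and dystroglycan, 5 of 6 were tested and 4 were higher (median log2 difference 0.97). COL18A1, the heparan sulfate proteoglycan whose C-terminal fragment is endostatin, was at 39.5 and 63.0 FPKM in WT, 110.4 and 153.7 in SNAI1_KO_1, and 110.0 and 172.5 in SNAI1_KO_2. All knockout values were above WT, with a mean ratio of 2.67 (1.41 ± 0.058, limma adjusted p = 0.000197). DAG1, which encodes both chains of the laminin receptor dystroglycan, was at 38.5 and 45.2 FPKM in WT, 77.4 and 87.9 in SNAI1_KO_1, and 76.5 and 92.7 in SNAI1_KO_2. Each knockout library was between 1.95 and 2.05 times the WT library of its table (0.98 ± 0.050, limma adjusted p = 0.000324). AGRN, the proteoglycan that joins laminin to dystroglycan, was at 31.3 and 69.5 FPKM in WT, 58.2 and 141.2 in SNAI1_KO_1, and 62.6 and 142.2 in SNAI1_KO_2. Its first-table knockout values were under the second-table WT value, while the within-table ratios lay between 1.86 and 2.05 (0.97 ± 0.053, limma adjusted p = 0.000370).

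HSPG2, or perlecan, showed a smaller rise with the same split between tables. It was at 19.2 and 40.2 FPKM in WT, 26.8 and 58.1 in SNAI1_KO_1, and 25.4 and 67.7 in SNAI1_KO_2 (0.53 ± 0.090, limma adjusted p = 0.0108). NID1, the nidogen that links laminin to collagen IV, was at 8.35 and 9.38 FPKM in WT and between 6.04 and 9.71 in the knockout libraries, and did not pass (-0.21 ± 0.11, limma adjusted p = 0.215). NID2 was under the filter, at 1.12 and 1.003 FPKM in WT and between 0.468 and 0.697 in the knockout libraries. For AGRN, HSPG2, LAMA5, LAMB2 and LAMC3 the ranges over both tables overlapped although the within-table differences all had one sign, and these were the 5 called genes for which this held. Without the term for the table the limma adjusted p was 0.41 for AGRN and 0.706 for HSPG2, and for HSPG2 it was 0.0957 without the second-table WT library.

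**Figure D4:**
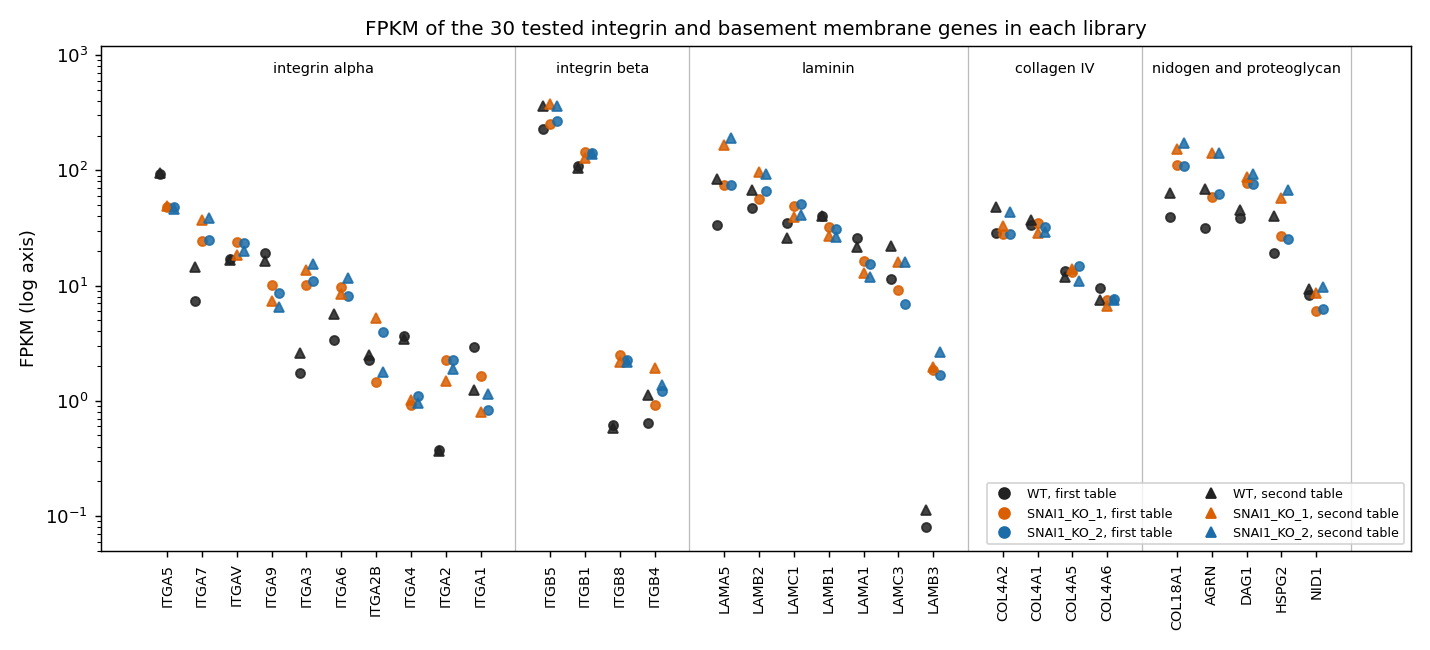
FPKM of the 30 tested genes in each of the 6 libraries on a log axis, by class, with groups by colour and tables by symbol. ITGA5 lay at 93.7 and 94.9 in WT and between 46.5 and 49.3 in the knockout libraries, and COL18A1 at 39.5 and 63.0 in WT and between 110.0 and 172.5 in the knockout libraries.

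Over all 43 genes, tested or not, 19 had all 4 within-table differences higher, 14 had all lower and 10 were mixed. Among the 30 tested genes 24 had 4 differences of one sign, the 21 called genes among them, against 61.3% of all genes tested. Among the tested genes 11 had every knockout library above both WT libraries and 5 had every one below. Of all genes tested, 16.9% were separated with the knockout higher and 17.1% with it lower. Among the 13 genes under the filter, LAMA3, COL4A3 and COL4A4 were separated upward, and ITGA8, ITGB3, LAMA2, LAMA4 and NID2 downward. The share of all genes under the filter that were separated was not counted, so these have no background to be read against. ITGA8, an RGD-binding chain, was at 0.746 and 0.486 FPKM in WT and between 0.0260 and 0.0665 in the knockout libraries, and with no filter its limma adjusted p was 0.0245. LAMA2, the alpha chain of muscle laminin, was at 1.28 and 1.01 FPKM in WT and between 0.331 and 0.441 in the knockout libraries (no filter, limma adjusted p = 0.0489). ITGB3, LAMA4 and NID2 did not pass with no filter (limma adjusted p = 0.231, 0.183 and 0.124). The other 5 of these 13 genes (ITGA10, ITGA11, ITGB2, ITGB6 and ITGB7) overlapped between groups and were listed at no more than 1.49 FPKM in any library.

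Genes of the same systems outside the 43 were counted by list, to be read against the 31.3% of all genes tested that passed. In the contrast of both knockout groups with WT, integrin ligands other than laminins and collagen IV had 9 higher, 3 lower and 4 not passing of 16 tested. CYR61 and CTGF, secreted matricellular proteins that bind integrins, had the largest rises, with CYR61 at 7.76 and 6.96 FPKM in WT and between 62.8 and 89.8 in the knockout libraries (3.10 ± 0.15, limma adjusted p = 0.000281). The fibronectin gene FN1 itself did not pass (-0.20, limma adjusted p = 0.305). POSTN (-1.09) and the microfibril gene FBN1 (-1.07) were lower. Adaptors and tetraspanins that act with integrins had 12 higher, 2 lower and 17 not passing of 31 tested (45.2% called). The focal adhesion kinase relative PTK2B was higher (2.08, limma adjusted p = 0.000379), and the kinase gene SRC was lower, at 73.7 and 78.5 FPKM in WT and between 26.0 and 34.8 in the knockout libraries (-1.27 ± 0.066, limma adjusted p = 0.000341).

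Genes that act on dystroglycan, its glycosylation and its complex, had 6 higher, 2 lower and 12 not passing of 20 tested (40% called, near the 31.3% of all genes). Among them LARGE2, a glycosyltransferase that builds the laminin-binding glycan, was at 3.96 and 6.22 FPKM in WT and between 14.7 and 26.9 in the knockout libraries (1.82 ± 0.086, limma adjusted p = 0.000284). Other matrix receptors had 4 higher and 4 lower of 14 tested, with the laminin-binding BCAM higher (1.56, limma adjusted p = 0.000831). Of the syndecans, SDC2 was higher (1.51) and SDC1 lower (-0.64). Other basement membrane components had 4 higher and 6 lower of 14 tested, with TINAGL1 higher (1.43) and NTN4, a netrin that binds laminin, lower (-1.36). Enzymes of collagen folding and crosslinking had 2 higher and 8 lower of 18 tested, with LOXL3 higher (1.42) and P3H1 lower (-0.77). Matrix proteases and their inhibitors had 3 higher and 6 lower of 13 tested. The medians of the 7 lists counted here lay between -0.33 and 0.34.

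Markers of several cell types differed between the groups. Their counts are to be read against the 31.3% of all genes tested that passed. All 11 tested epithelial markers were higher in the knockout groups, and their summed FPKM was 819.8 and 915.7 in WT and between 2609 and 2918 in the knockout libraries. Mesoderm markers had 9 lower and 1 higher of 12 tested, with sums between 1789 and 1832 in WT and between 1166 and 1255 in the knockout libraries. Endoderm markers had 2 higher, 3 lower and 3 not passing of 8 tested, and summed to between 3139 and 3514 in WT and between 1438 and 2052 without SNAI1. Amnion and trophoblast markers had 3 higher, 2 lower and 1 not passing of 6 tested, with a median log2 difference of 0.57, while their summed FPKM went from between 258.2 and 278.5 in WT to between 116.8 and 132.7. HAND1 is in this list and in the mesoderm list, so it enters the counts and sums of both. Pluripotency markers had 3 higher and 0 lower of 9 tested (33.3% called, near the 31.3% of all genes). Their sums were between 1232 and 1266 in WT and between 1465 and 1651 in the knockout libraries. Neural markers had 3 higher and 0 lower of 4 tested, with sums of 261.2 in WT against 416.2 and 427.6 in the first table and of 534.7 against 803.8 and 841.0 in the second. Fibroblast and smooth muscle markers had 1 higher, 1 lower and 4 not passing of 6 tested (33.3% called, also near 31.3%). These markers had a median log2 difference of 0.01. Their sum, most of it TAGLN, went from between 458.2 and 480.1 in WT to between 1567 and 1821 in the knockout libraries. COL3A1, DCN and MYH11 were under 1 FPKM in all 6 libraries. Endothelial markers summed to between 4.43 and 6.06 over all libraries, with PECAM1 and CDH5 under 1 FPKM throughout, and blood and megakaryocyte markers to between 4.30 and 7.79, with PTPRC and GATA1 under 1 FPKM throughout. In bulk RNA, fewer cells of a type and less RNA per cell cannot be told apart. The part of these cell type markers in the integrin and basement membrane differences was not tested.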

How the data were processed

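RNA-seq of 6 libraries was analysed as FPKM values that the authors deposited per gene symbol in 2 tables with 1 library of each group in each. The submitters' processing notes name BWA, Bowtie, RSEM and hg19 without roles or order. Study methods describe sequencing by a pair of companies, and which table came from which is not given in the sources used here. Repeated symbols (94 in the first table and 340 in the second) were dropped. Genes with a mean of at least 1 FPKM over the 6 libraries (13909 genes) were fitted on log2(FPKM + 1) with limma (version 3.58.1, R version 4.3.3), with a mean per group, a term for the table and a mean-variance trend (2 residual and 3.34 prior degrees of freedom). Two-sided p-values had Benjamini-Hochberg adjustment across the 13909 genes, and the threshold was 0.05. The libraries are paired by the table they share: differences between tables correlated across genes with r = 0.616, 0.666 and 0.676 for the 3 pairs of groups. Genes were named where they passed with a log2 difference of at least 0.5 in size, plus the most abundant gene of a class, and others of the 43 were named after their values were seen. From each related list up to 2 genes in each direction were named by size. The members and lists were chosen with earlier results of these data known. Whether counting used strand is not given in the sources used here. Antisense genes are listed for 6 of the 43 genes, and 1 of these 8 antisense rows, ITGA9-AS1, reached 1 FPKM (highest value 1.24). As FPKM values are no counts, no count test was run. Promoter windows came from RefSeq (GRCh38.p14) and no coordinates were taken from the tables. Of the related lists, 1 is not reported here.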

Additional observations from a re-analysis of the deposited data

How the results depend on the processing

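Of the genes tested among the 43, 21 passed in both knockout groups against WT (15 higher, 6 lower). With no replicate block, that is without the term for the table that pairs the libraries, 9 passed (6 higher, 3 lower). The 12 lost were ITGA6, ITGA7, ITGAV, ITGB1, LAMA1, LAMA5, LAMB1, LAMB2, LAMC1, LAMC3, HSPG2 and AGRN, with adjusted p between 0.0624 (ITGA7) and 0.706 (HSPG2). With a log2 difference of at least 1 also required, 9 passed (7 higher, 2 lower). With each library left out in turn the count was between 15 and 20 (10 to 14 higher, 4 to 6 lower). In SNAI1_KO_1 alone the count went from 19 to 6 with no block, to 8 with the log2 requirement and to between 9 and 17 with a library left out. It was 12 without the first-table WT library, 11 without the second-table WT library and 9 without the first-table SNAI1_KO_1 library. In SNAI1_KO_2 alone it went from 20 to 7, to 10 and to between 10 and 20. It was 12 and 13 without the first-table and second-table WT library, and 10 without the second-table SNAI1_KO_2 library. Over all genes tested, calls in both groups went from 4348 to 1065 with no block, to 998 with the log2 requirement, to 2619 with no filter and to between 1825 and 2919 with a library left out. In SNAI1_KO_1 they went from 3327 to 576, 950 and 1485, and in SNAI1_KO_2 from 3549 to 698, 1054 and 1707, in that order. Without a library, the first-table WT library cost the calls of ITGA2, ITGA6, ITGAV, ITGB1, LAMB2 and LAMC3, and the second-table WT library those of ITGAV, LAMB1, LAMB2, LAMC3 and HSPG2. LAMC3 was also lost without the second-table SNAI1_KO_1 or the first-table SNAI1_KO_2 library, and ITGA6 without the second-table SNAI1_KO_2 library. With no filter ITGA6, ITGAV, LAMB2, LAMC3 and HSPG2 were lost. Directions turned only for ITGA2B (-0.22 without the first-table SNAI1_KO_2 library, -0.26 without the second-table SNAI1_KO_1 library) and COL4A5 (-0.039 and -0.038 for the same libraries), neither of which had passed. Over all libraries left out in turn their log2 differences reached 0.59 and 0.15. Where a count changed, the cause was not tested. No scaling moved the median of all genes by over 0.1. FPKM without read totals leaves the precision of genes near 0 unknown.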

Other observations

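Levels differed between the tables for some genes. In WT, the level in the second table was 2.48 times that in the first for LAMA5, 2.22 for AGRN, 2.09 for HSPG2, 1.95 for ITGA7 and LAMC3, 1.66 for COL4A2 and 1.596 for COL18A1. ITGA5 (1.01), LAMB1 (0.999) and ITGB1 (0.957) were at almost the same level in both, while LAMC1 (0.742) and ITGA1 (0.422) were lower in the second. The first table has 38100 rows and the second 58324, so they do not list the same set of genes. The company, library and counting of the tables cannot be told apart, and 1 WT library per table gives no test of these ratios.

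COL4A3 and COL4A4, whose starts lie side by side, were near 0 in WT and above it in all 4 knockout libraries, while COL4A5, whose chain joins theirs in one network, was between 10.9 and 14.9 FPKM in all libraries. The glycosyltransferase gene LARGE2 and the receptor gene DAG1 were both higher in every knockout library than in the WT library of its table.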
